A study of Mus musculus with 9 samples.

Results

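Glycolysis and the pentose phosphate pathway were represented by 38 genes, chosen by their symbols and matched to the 53379 genes of the expression table through their Ensembl identifiers. They comprised 3 glucose transporters, 3 hexokinases, 9 genes of upper glycolysis, 8 of lower glycolysis, 4 lactate enzymes and transporters, 4 pyruvate dehydrogenase (PDH) kinases, 3 genes of the oxidative and 4 of the non-oxidative pentose phosphate pathway. The study sequenced polyadenylated RNA of bone marrow (BM)-derived macrophages (Mϕs) of C57BL/6 mice, 9 libraries in all, to ask how each cytokine alters transcription. BM cells were given 10 ng/ml MCSF (CSF-1) for 3 days in every group, and then 4 days of MCSF at the same dose alone (Control, n = 3), with 10 ng/ml IL-4 (n = 3) or with 100 ng/ml IL-6 (n = 3). The IL-4 dose is that of the labels, and the methods text gives a higher one. The figure legends of the paper give other doses of both cytokines and a shorter treatment. The labels number the libraries #1 to #3 by mouse. Levels are FPKM, fragments scaled to transcript length and to the library's total, so that genes of different length can be compared.

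Glycolysis splits glucose into pyruvate in the cytosol, and lactate dehydrogenase and the monocarboxylate transporters carry the surplus carbon out of the cell as lactate. The pentose phosphate pathway branches off glucose-6-phosphate: its oxidative arm makes NADPH, which phagocytes use for the oxidative burst and for lipid synthesis, and its reversible non-oxidative arm makes ribose phosphate and returns carbon to glycolysis. In Mϕs both are known to be set by activating signals, and hypoxia-inducible factor (HIF)-1 is a known activator of many genes of the group through sites with the core ACGTG or GCGTG.

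The windows of 250 bases before the RefSeq transcription start are shown for 6 members on which the results below turn, with each ACGTG or GCGTG and its reverse complement in capitals (GRCm38.p6). The window of Slc2a1 is chr4:119108495-119108744 on the plus strand, that of Slc2a6 chr2:27027999-27028248 (minus), that of Pfkl chr10:78009808-78010057 (minus), that of Pfkp chr13:6648772-6649021 (minus), the first of Ldha chr7:46845554-46845803 (plus) and that of Slc16a3 chr11:120948817-120949066 (plus).
Slc2a1: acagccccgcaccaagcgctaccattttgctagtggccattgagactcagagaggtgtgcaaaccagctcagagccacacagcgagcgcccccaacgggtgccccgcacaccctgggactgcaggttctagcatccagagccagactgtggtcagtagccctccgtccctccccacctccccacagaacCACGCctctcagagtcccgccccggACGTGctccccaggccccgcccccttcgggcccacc
Slc2a6: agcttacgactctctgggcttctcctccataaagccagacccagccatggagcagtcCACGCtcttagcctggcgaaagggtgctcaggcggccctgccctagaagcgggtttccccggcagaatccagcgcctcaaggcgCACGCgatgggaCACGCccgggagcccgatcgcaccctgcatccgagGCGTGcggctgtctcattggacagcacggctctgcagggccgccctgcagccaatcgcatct
Pfkl: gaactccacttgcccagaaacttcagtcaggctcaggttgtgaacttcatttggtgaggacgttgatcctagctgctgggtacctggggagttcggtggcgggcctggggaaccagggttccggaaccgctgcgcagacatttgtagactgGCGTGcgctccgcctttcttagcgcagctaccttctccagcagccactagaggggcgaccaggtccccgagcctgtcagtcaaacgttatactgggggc
Pfkp: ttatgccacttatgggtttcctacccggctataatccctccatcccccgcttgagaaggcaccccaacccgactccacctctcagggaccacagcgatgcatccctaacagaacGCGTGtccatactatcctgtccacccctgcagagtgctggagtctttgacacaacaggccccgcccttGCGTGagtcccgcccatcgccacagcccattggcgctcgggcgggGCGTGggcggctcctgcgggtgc
Ldha: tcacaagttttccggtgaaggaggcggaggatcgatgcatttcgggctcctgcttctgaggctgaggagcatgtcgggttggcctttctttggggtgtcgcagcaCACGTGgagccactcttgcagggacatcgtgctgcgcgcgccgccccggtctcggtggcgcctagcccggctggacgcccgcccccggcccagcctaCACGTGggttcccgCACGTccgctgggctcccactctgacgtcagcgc
Slc16a3: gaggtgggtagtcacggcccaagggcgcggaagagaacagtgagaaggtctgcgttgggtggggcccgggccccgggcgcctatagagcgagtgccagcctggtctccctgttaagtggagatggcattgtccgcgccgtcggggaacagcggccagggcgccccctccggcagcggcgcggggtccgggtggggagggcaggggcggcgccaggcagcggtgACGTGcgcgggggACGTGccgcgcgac

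Of 52 windows of 37 members (all but Slc2a3, which had none), 40 held ACGTG or GCGTG on either strand (76.9%), against 38.6% of all 32851 RefSeq windows of the same length. Some windows of the same gene overlap, as for Aldoa, so that 1 match can count in more than 1 window. ACGTG alone was found in 32.7% of the members' windows and 16.6% of all windows, and GCGTG alone in 55.8% and 28.2%. The members' windows had a median GC content of 59.4% and a median of 14 CG dinucleotides, against 52.4% and 6 over all windows, and the part of base composition in these shares was not tested. TTCNNNGAA, the spaced palindrome that Stat proteins are known to bind, was found in 2 of the 52 windows (3.85%, against 7.02% of all), and the same palindrome with 1 more base in its spacer, the form known for Stat6, in 4 (7.69%, against 5.85%). A match is a run of letters and not a measured binding site. Of the 37 members, 32 held ACGTG or GCGTG in a window (86.5%, against 41.5% of all genes). With so few members lacking it, its presence cannot be set against the direction of their changes.

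Among the libraries, IL-4 #3 stood apart: 60.1% of the tested genes differed by over 1.5-fold from the mean of IL-4 #1 and #2, as did 13 of the 37 tested members, and every count was therefore also taken without it. The median ratio of IL-4 #3 to that mean was 0.766 over all tested genes. Its FPKM summed to 441581, against 340446 in IL-4 #1 and 344634 in IL-4 #2. How much of the 60.1% is a shift of the whole library was not tested. Markers of Paneth and goblet cells (13 genes, without Lyz1) summed to 37.0 to 55.9 FPKM in the Control libraries and IL-4 #1 and to 0.0139 to 0.175 FPKM in the other 5, so that the Control libraries fell in one set and the IL-6 libraries in the other. Set and IL-6 treatment cannot be told apart, and a fit that includes the set, chosen after the data were seen, separates them only through the IL-4 libraries. In that fit the difference of IL-4 from Control rests on IL-4 #1 alone, and that of IL-6 also draws on IL-4 #1. A call lost in that fit therefore cannot be laid to the set. All 7 Mϕ markers were above 1 FPKM, with sums of 16537 to 18825 FPKM in Control, 6006 to 7028 with IL-4 and 20053 to 21174 with IL-6. Lyz2 made up most of each sum (13790 to 16060 FPKM in Control, 4479 to 5734 with IL-4 and 17850 to 18960 with IL-6). With IL-4, Itgam lay above Control (37.2 to 72.3 against 33.7 to 36.8 FPKM) and the other Mϕ markers below it. With IL-6, Lyz2 and Itgam lay above Control, Cd68 below it (934 to 968 against 1311 to 1642 FPKM), and the others overlapped it. All 12 neutrophil markers were above 1 FPKM as well (5123 to 8979 in Control, 2259 to 4169 with IL-4 and 8310 to 11499 with IL-6), and their part in the results was not tested. S100a8 and S100a9 made up most of each sum. With IL-4, S100a9 overlapped Control and the other neutrophil markers lay below it. With IL-6, Prtn3, Ltf, S100a8, Mmp8 and Csf3r lay above Control. The others overlapped it, Retnlg mostly below it (95.05 to 195.2 against 181.5 to 349.7 FPKM). Markers of the cell cycle (8 genes) summed to 29.2 to 34.3 FPKM in Control, 23.5 to 71.7 with IL-4 and 52.3 to 54.8 with IL-6. The libraries held 29988160 to 39909571 fragments, and genes known to respond to each cytokine checked the treatments. Socs3, a target of IL-6 signaling, was 1.61 to 2.91 FPKM in Control and 74.7 to 85.5 with IL-6, and Arg1, a target of IL-4, 0.409 to 0.718 in Control and 730 to 1227 with IL-4. Retnla and Mrc1, which are also known to respond to IL-4, were at 3.38 to 6.36 and 59.0 to 80.8 FPKM in Control and at 10230 to 24325 and 106 to 288 with IL-4. With IL-6, Arg1, Retnla and Mrc1 also lay above Control (2.06 to 5.33, 19.7 to 27.9 and 112 to 130 FPKM).

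Levels of the group ranged widely. Aldoa had the highest mean over the 9 libraries (285 to 524 FPKM), and Pkm, Gapdh, Taldo1 and Ldha came next. Pdk4 was at 0 to 0.0846 FPKM and was the 1 member that failed the filter of a mean of 0.5 FPKM, so that 37 of 38 were tested among 12824 genes. The glycolytic enzymes, from the hexokinases to Pkm, summed to 1136 to 1478 FPKM in Control, 1773 to 1975 with IL-4 and 1682 to 1907 with IL-6. All 6 treated libraries were above all 3 Control libraries, and the IL-4 and IL-6 libraries overlapped. The pentose phosphate enzymes summed to 521 to 639 FPKM in Control, 488 to 653 with IL-4 and 481 to 505 with IL-6, and the IL-6 libraries lay wholly below Control. As a percent of all FPKM, the sum was 0.161 to 0.172% in Control, 0.143 to 0.148% with IL-4 and 0.140 to 0.146% with IL-6, so that on this scale the libraries of both cytokines lay wholly below Control.

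**Figure D1:**
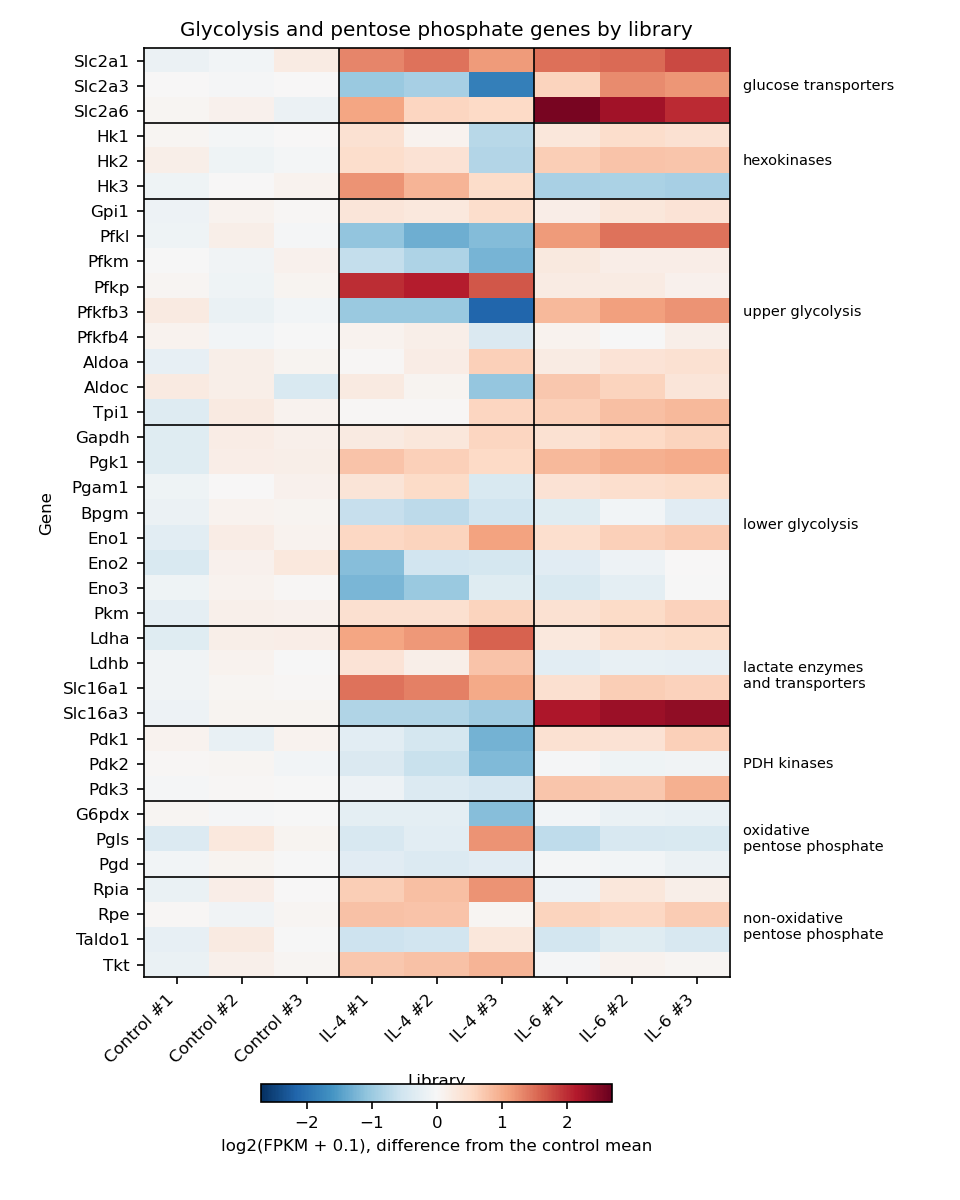
Level of each of the 37 tested members (vertical axis, grouped by role) in each of the 9 libraries (horizontal axis), as the difference of log2(FPKM + 0.1) from the Control mean; red is above and blue below Control. Slc16a3 and Pfkl are blue in all 3 IL-4 libraries and red in all 3 IL-6 libraries, Pfkp is red in the IL-4 libraries, and IL-4 #3 differs from IL-4 #1 and #2 in Hk1, Hk2, Pgam1, G6pdx and Pgls.

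With IL-4, 20 of the 37 tested members passed the limma test across all genes (Benjamini-Hochberg adjusted p under 0.05), against 24.8% of the 12824 genes. Of these, 11 rose (8.55% of all genes did) and 9 fell (16.3%), and the median log2 fold change was 0.15 over the members and −0.20 over all genes. With 1 library left out at a time, the members' median ranged from −0.02 (without IL-4 #2) to 0.21 (without Control #3). The median over all genes is not given for those refits. Rescaling by median ratios moved the all-gene median to −0.01 and the members' counts to 13 higher and 6 lower, against 12.3% and 12.6% of all genes, with a median of 0.35. In bulk RNA, fewer cells of a type and less RNA per cell cannot be told apart, here and in every result that follows. Without IL-4 #3, 27 members passed (37.8% of all genes), 15 higher (15.3%) and 12 lower (22.5%). A term for the library set leaves only IL-4 #1 against Control, so no count is given with it. Without Control #3 the total was 13, and with the IL-6 libraries left out of the fit 11. The share of all genes is not given without Control #3 or with the IL-6 libraries left out. Those counts alone are therefore no result about the members.

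With IL-6, 7 of 37 members passed, against 8.4% of all genes. Slc2a1, Slc2a6, Pfkl, Pgk1, Slc16a3 and Pdk3 rose (6, against 4.58% of all genes) and Hk3 fell (1, against 3.82%), and the median log2 fold change was 0.43 over the members and −0.00 over all genes. The count depended on IL-4 #3, which is in neither group compared but in the shared fit: without that library 20 members passed (24.7% of all genes), 18 higher (12.3%) and 2 lower (12.4%), and with the IL-4 libraries left out 17 were higher and 1 lower (11.1% and 10.9% of all genes). In 24 members the IL-6 values all exceeded those of Control, and in 5 all were below, against 20% and 23.2% of all genes. With a term for the library set 4 members remained, Slc2a1, Slc2a6, Pfkl and Slc16a3, against 1.46% of all genes. The IL-4 and IL-6 comparisons share the Control libraries, so their values are given side by side and were not correlated.

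Between the cytokines, 16 of 37 members passed, against 34.1% of all genes. Slc2a3, Slc2a6, Pfkl, Pfkm, Pfkfb3, Slc16a3 and Pdk1 to Pdk3 were higher with IL-6 (9, against 20.8% of all genes), and Hk3, Pfkp, Ldha, Ldhb, Slc16a1, Rpia and Tkt were lower (7, against 13.3%). The median log2 fold change was 0.30 over the members and 0.22 over all genes. Without IL-4 #3 21 passed (43.2% of all genes), 14 higher (24.7%) and 7 lower (18.5%). Quantile normalization also gave 14 higher and 7 lower (18.1% and 20.4% of all genes). When a 2-fold difference was required as well, 7, 4 and 10 members passed in the 3 comparisons, against 13.9%, 5.38% and 20.4% of all genes.

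**Figure D2:**
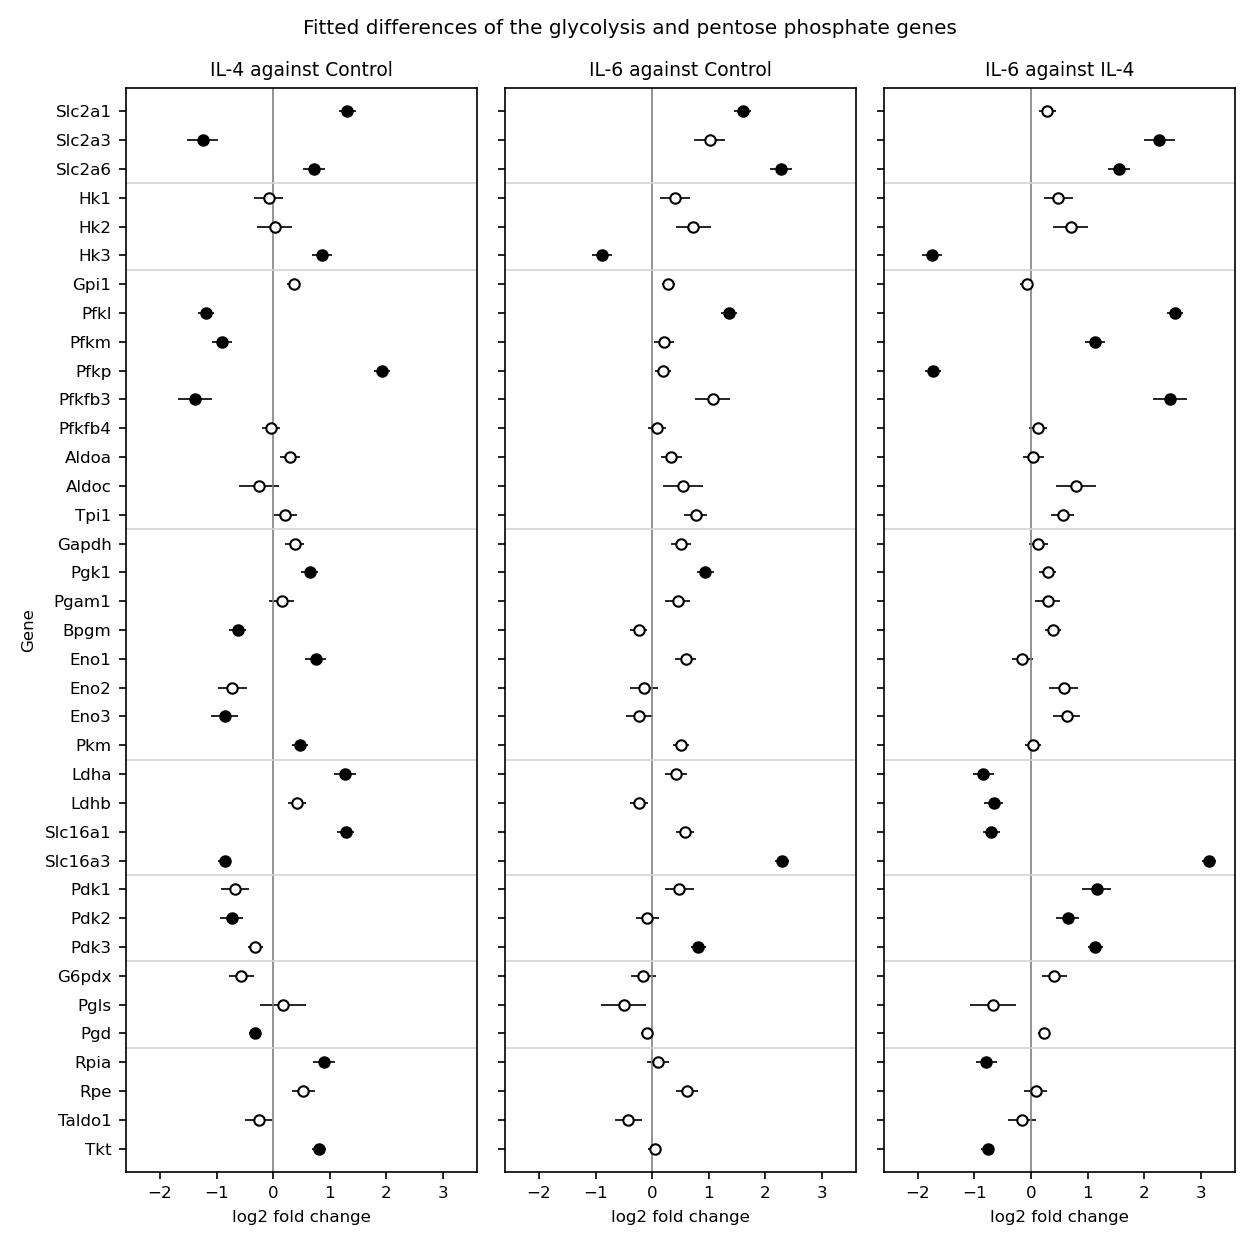
Log2 fold change (horizontal axis, on the log2(FPKM + 0.1) scale) of each tested member (vertical axis) in the 3 comparisons, with the standard error as a bar; filled points passed the test across all genes and open points did not. Pfkl, Slc16a3, Slc2a3 and Pfkfb3 lie left of 0 for IL-4 and right of 0 for IL-6, and Pfkp lies right of 0 for IL-4.

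Among glucose transporters, Slc2a1 (GLUT1, the main basal transporter) rose with both cytokines, Slc2a3 (GLUT3, with high affinity for glucose) fell with IL-4, and Slc2a6 (GLUT6, a lysosomal family member) rose with both. Slc2a1 (chr4:119108711-119137983) was at 6.50, 6.90 and 8.52 FPKM in Control #1 to #3, 18.4, 20.3 and 16.2 under IL-4 and 20.6, 21.1 and 25.2 under IL-6. Every treated library was above every Control library, and the IL-4 and IL-6 libraries did not overlap either. The log2 fold change of Slc2a1 against Control was 1.31 ± 0.15, adjusted p = 0.000478 with IL-4 and 1.60 ± 0.15, adjusted p = 0.000561 with IL-6 (± standard error, n = 3 per group, limma adjusted p, here and below). The difference between the cytokines was 0.29 ± 0.15, adjusted p = 0.165.

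Slc2a3 was at 7.77, 7.48 and 7.78 FPKM in Control, 3.81, 4.08 and 2.06 under IL-4 and 11.7, 18.6 and 17.6 under IL-6. The 3 groups did not overlap, with IL-4 lowest and IL-4 #3 the lowest of all. It fell with IL-4 (−1.24 ± 0.28, adjusted p = 0.0128), and IL-6 stood above IL-4 by 2.26 ± 0.28, adjusted p = 0.000514. The difference of IL-6 from Control was 1.02 ± 0.28, adjusted p = 0.0624, and it passed without IL-4 #3 (adjusted p = 0.00425). The call for IL-4 was lost with a term for the library set, where only IL-4 #1 stands against Control (−0.99).

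Slc2a6 was at 5.95, 6.20 and 5.09 FPKM in Control, 12.1, 8.62 and 8.37 under IL-4 and 34.2, 28.0 and 23.3 under IL-6. The IL-6 libraries were all above the IL-4 libraries, which were all above Control. The rise was 2.28 ± 0.19, adjusted p = 0.000385 with IL-6 and 0.73 ± 0.19, adjusted p = 0.0274 with IL-4, and IL-6 against IL-4 gave 1.55 ± 0.19, adjusted p = 0.000599. The IL-4 call did not hold when Control #1, #2 or #3, IL-4 #1 or IL-6 #2 was left out (adjusted p up to 0.103). The 3 transporters together summed to 20.2 to 21.4 FPKM in Control, 26.6 to 34.2 with IL-4 and 66.1 to 67.8 with IL-6, and Slc2a1 held 32.2 to 39.8%, 53.6 to 61.5% and 31.0 to 38.1% of that sum. As a percent of all FPKM, the sum in IL-4 #3 (0.00602%) lay within the Control range (0.00554 to 0.00627%). The share of Slc2a3 was 36.4 to 38.4% in Control, 7.76 to 12.4% with IL-4 and 17.6 to 27.5% with IL-6.

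Hexokinases trap glucose in the cell as glucose-6-phosphate, and Hk3, the isozyme of myeloid cells, was the most abundant in every library. Hk3 (chr13:55005985-55021385) was at 119, 131 and 139 FPKM in Control, 300, 244 and 182 under IL-4 and 70.7, 71.3 and 69.2 under IL-6. The groups did not overlap, with IL-4 highest and IL-6 lowest, and IL-4 #3 was the lowest of its group. Hk3 rose with IL-4 (0.87 ± 0.18, adjusted p = 0.00872), fell with IL-6 (−0.88 ± 0.18, adjusted p = 0.0204) and was lower with IL-6 than with IL-4 (−1.75 ± 0.18, adjusted p = 0.000185). The fall with IL-6 did not pass when Control #2 or #3 or any 1 IL-6 library was left out (adjusted p up to 0.0981) or with a term for the library set (−0.37, adjusted p = 0.349), and with quantile normalization neither call against Control passed (adjusted p = 0.0860 for IL-4 and 0.0561 for IL-6).

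Hk1, the housekeeping isozyme, was at 9.22 to 9.94 FPKM in Control, 5.70 to 12.8 with IL-4 and 11.9 to 13.5 with IL-6, and Hk2, the inducible one, at 9.84 to 11.9, 6.07 to 14.9 and 17.0 to 18.2. For both, all IL-6 libraries lay above Control, the fit over all libraries did not pass (Hk1 0.40 ± 0.26, adjusted p = 0.450; Hk2 0.73 ± 0.31, adjusted p = 0.223), and without IL-4 #3 it did (adjusted p = 0.0225 and 0.00101). With IL-4 neither passed against Control over all libraries, and Hk2 passed as higher without IL-4 #3 (adjusted p = 0.00970). Hk3 made up 84.5 to 87.4% of the hexokinase sum in Control, 90.9 to 93.9% with IL-4 and 69.2 to 70.9% with IL-6. Hk2 made up 6.48 to 8.42%, 3.14 to 5.22% and 17.1 to 17.9%, so that the make-up separated the 3 groups in opposite directions. The hexokinase sum itself was 141 to 159 FPKM in Control, 194 to 328 with IL-4 and 99.7 to 103 with IL-6. As a percent of all FPKM, this sum in IL-4 #3 (0.0438%) lay within the Control range (0.0404 to 0.0452%).

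Phosphofructokinase catalyzes the committed step of glycolysis, and its most abundant isozyme was Pfkp in the IL-4 libraries and Pfkl in the IL-6 and Control libraries. Pfkl, the liver-type isozyme (chr10:77986947-78010083), was at 11.3, 13.7 and 11.9 FPKM in Control, 5.82, 4.83 and 5.36 under IL-4 and 27.4, 34.0 and 34.0 under IL-6. All 3 groups were apart, with IL-4 below and IL-6 above Control. Pfkl fell with IL-4 (−1.19 ± 0.14, adjusted p = 0.000550), rose with IL-6 (1.36 ± 0.14, adjusted p = 0.000844) and was higher with IL-6 than with IL-4 by 2.55 ± 0.14, adjusted p = 6.34e-06.

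Pfkp, the platelet-type isozyme (chr13:6579768-6648777), was at 5.00, 4.45 and 5.10 FPKM in Control, 19.5, 21.4 and 15.6 under IL-4 and 5.68, 5.65 and 5.25 under IL-6. The IL-4 libraries were all above the rest, and the IL-6 libraries were all just above Control. It rose with IL-4 (1.92 ± 0.14, adjusted p = 4.79e-05), the difference of IL-6 from Control was 0.19 ± 0.14, adjusted p = 0.533, and IL-6 against IL-4 gave −1.74 ± 0.14, adjusted p = 5.19e-05. The exons of Pfkp share 5.10% of their 50-base stretches with Pitrm1, which overlaps it on the other strand.

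Pfkm, the muscle-type isozyme, was the lowest of the family at 3.22, 3.03 and 3.53 FPKM in Control, 2.04, 1.79 and 1.30 under IL-4 and 3.93, 3.70 and 3.72 under IL-6. The 3 groups did not overlap, with IL-4 lowest. It fell with IL-4 (−0.91 ± 0.18, adjusted p = 0.00675) and was higher with IL-6 than with IL-4 (1.12 ± 0.18, adjusted p = 0.00178). The fall did not pass with a term for the library set, where only IL-4 #1 stands against Control (−0.65). Pfkl made up 57.8 to 64.6% of the family's sum in Control, 17.2 to 24.1% with IL-4 and 74.0 to 79.1% with IL-6. Pfkp made up 21.1 to 25.7%, 70.1 to 76.4% and 12.2 to 15.4%. The sum of the family was 19.5 to 21.2 FPKM in Control, 22.3 to 28.0 with IL-4 and 37.0 to 43.4 with IL-6. As a percent of all FPKM, the sum in IL-4 #3 (0.00505%) lay below the Control range (0.00569 to 0.00603%). The shares of the isozymes do not depend on how a library is scaled, and an exact two-sided permutation test of 3 against 3 libraries cannot go below p = 0.1.

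**Figure D3:**
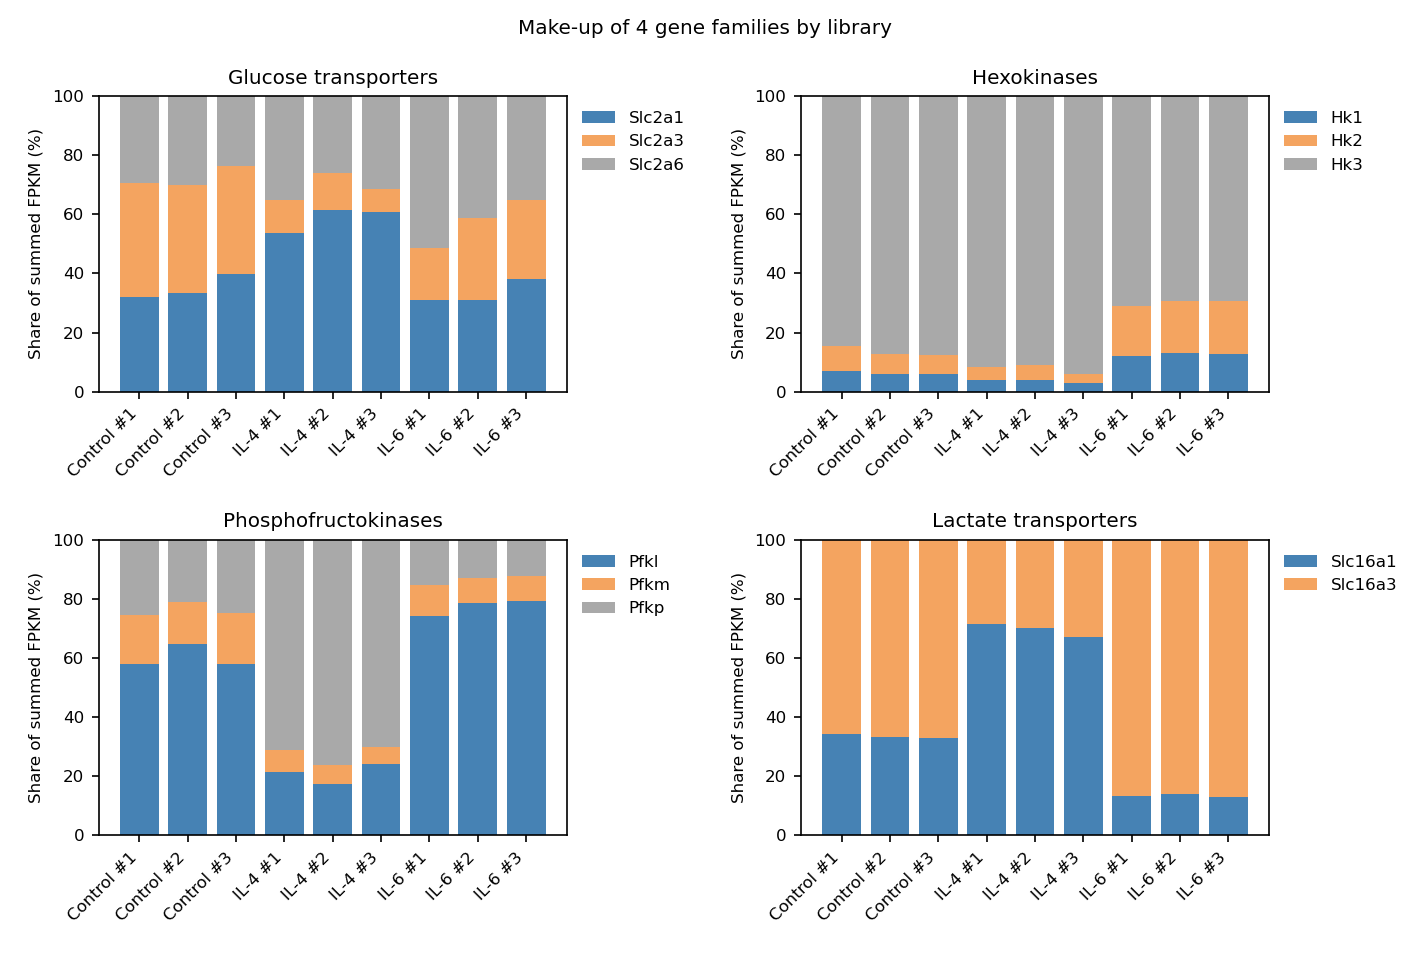
Share of each gene (colors) in the summed FPKM of its family (vertical axis, percent) in each of the 9 libraries (horizontal axis). Pfkp takes 70.1 to 76.4% of the phosphofructokinases in the IL-4 libraries and Pfkl 74.0 to 79.1% in the IL-6 libraries, Slc16a3 takes 86.1 to 87.1% of the lactate transporters with IL-6 and 28.5 to 33.1% with IL-4, and Hk2 and Hk1 are larger with IL-6.

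Pfkfb3, which makes fructose-2,6-bisphosphate, the strongest activator of phosphofructokinase, was at 15.9, 11.7 and 12.7 FPKM in Control, 6.58, 6.62 and 2.92 under IL-4 and 24.6, 28.9 and 31.2 under IL-6. The groups did not overlap, with IL-4 lowest, IL-6 highest and IL-4 #3 the lowest of all. It fell with IL-4 (−1.38 ± 0.31, adjusted p = 0.0126) and was higher with IL-6 than with IL-4 (2.46 ± 0.31, adjusted p = 0.000572). IL-6 against Control gave 1.07 ± 0.31, adjusted p = 0.0746, which passed without IL-4 #3 (adjusted p = 0.00116), with pseudocount 1 and under both other scalings. The fall with IL-4 did not pass without Control #1 (adjusted p = 0.0511). It did not pass either with a term for the library set, where only IL-4 #1 stands against Control (−1.01). Its paralog Pfkfb4 stayed between 11.1 and 16.5 FPKM and passed in none of the 3 comparisons. Pfkfb3 made up 45.6 to 50.4% of the pair in Control, 20.8 to 29.5% with IL-4 and 61.0 to 66.4% with IL-6.

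The other genes of upper glycolysis did not pass. Gpi1 (glucose-6-phosphate isomerase) was 60.9 to 72.4 FPKM in Control, 82.1 to 93.6 with IL-4 and 76.5 to 86.9 with IL-6, with all treated libraries above Control, and its difference with IL-4 was 0.37 ± 0.12, adjusted p = 0.0506. That difference passed without IL-4 #3 (adjusted p = 0.0410) and after median-ratio rescaling (adjusted p = 0.0458). Aldoa, the main aldolase, held 99.2 to 99.6% of the aldolase sum in Control, and its fold change with IL-4 was 0.30 ± 0.18, adjusted p = 0.276, with the sign reversed under quantile normalization (−0.07). Tpi1 (triosephosphate isomerase) was 72.0 to 108 FPKM in Control and 141 to 168 with IL-6, without overlap. It did not pass with IL-6 (0.77 ± 0.20, adjusted p = 0.0566) or between the cytokines (0.56 ± 0.20, adjusted p = 0.0641), but passed both without IL-4 #3 (adjusted p = 0.00843 and 0.00826) and with the mouse number as a replicate block (adjusted p = 0.0424 and 0.0389). Aldoc, between 0.814 and 3.02 FPKM, passed between the cytokines with that block, alone among the alternatives run (adjusted p = 0.0366, against 0.115 without it).

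Of the 8 genes of lower glycolysis, 3 rose and 2 fell with IL-4, against 8.55% and 16.3% of all genes, and 1 rose with IL-6, against 4.58%. Pgk1, which makes the first ATP of the pathway, rose with IL-4 (0.65 ± 0.15, adjusted p = 0.0162) and with IL-6 (0.94 ± 0.15, adjusted p = 0.00751), at 69.8 to 98.3 FPKM in Control, 127 to 148 and 159 to 176. Of its 50-base stretches 53.9% also occur in other genes, nearly all in the retrogene Pgk1-rs7, so its level is less certain than most. Eno1, the ubiquitous enolase, rose with IL-4 (0.75 ± 0.19, adjusted p = 0.0216) and shares 26.0% of its stretches, mostly with Eno1b. With IL-6 Eno1 gave 0.60 ± 0.19, adjusted p = 0.105, which passed without IL-4 #3 (adjusted p = 0.0165). With a term for the library set the Pgk1 call for IL-6 did not pass (adjusted p = 0.117). Nor did the IL-4 calls of Pgk1 (0.76) and Eno1 (0.55), where only IL-4 #1 stands against Control.

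Gapdh, often used as a reference gene, was at 163, 238 and 227 FPKM in Control, 246, 257 and 308 under IL-4 and 273, 298 and 312 under IL-6. All treated libraries were above all Control libraries, and Control #1 was the lowest of the 9. The differences from Control were 0.38 ± 0.17, adjusted p = 0.144 for IL-4 and 0.51 ± 0.17, adjusted p = 0.122 for IL-6, and the latter passed without IL-4 #3 (adjusted p = 0.0381). Pkm, pyruvate kinase of the last step, was at 185, 240 and 239 FPKM in Control, 295, 295 and 331 under IL-4 and 290, 314 and 336 under IL-6. Its groups were arranged as those of Gapdh. Pkm rose with IL-4 (0.48 ± 0.14, adjusted p = 0.0376), a call that was lost when any of 8 of the 9 libraries was left out (adjusted p up to 0.113) and with quantile normalization (0.15, adjusted p = 0.383), and IL-6 gave 0.51 ± 0.14, adjusted p = 0.0645. For Pkm the difference of IL-6 from Control passed without IL-4 #3 (adjusted p = 0.0190). Stretches shared with other genes made up 25.1% of Gapdh and 25.8% of Pkm. FPKM here do not split Pkm into its M1 and M2 splice forms.

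Bpgm, which makes 2,3-bisphosphoglycerate, fell with IL-4 (−0.62 ± 0.15, adjusted p = 0.0165), and so did Eno3, the muscle enolase (−0.86 ± 0.24, adjusted p = 0.0312). Both calls were lost after rescaling by median ratios (adjusted p = 0.120 and 0.160) and when single libraries were left out (adjusted p up to 0.0732 and 0.0963). Eno2, the neuronal enolase, passed with IL-4 only with the replicate block (adjusted p = 0.0233, against 0.0720 without it), without Control #1 or without IL-4 #3. With that block Eno2 and Eno3 were also higher with IL-6 than with IL-4 (adjusted p = 0.0362 and 0.0423, against 0.107 and 0.0714). Eno1 held 91.4 to 92.4% of the enolase sum in Control, 96.9 to 97.5% with IL-4 and 94.8 to 95.3% with IL-6. Pgam1 (phosphoglycerate mutase), of which 36.2% is shared with a pseudogene, passed as higher than Control in both comparisons without IL-4 #3 (adjusted p = 0.00847 and 0.00758).

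**Figure D4:**
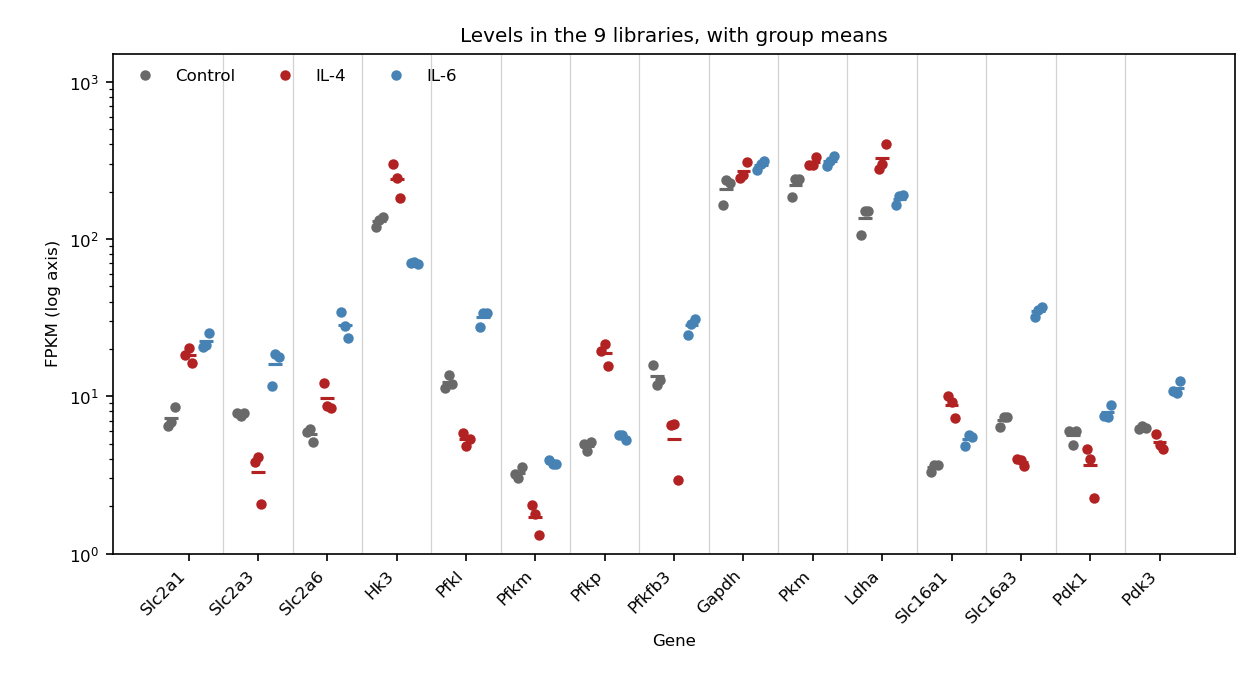
FPKM (vertical axis, log scale) of the 15 members given library by library, in the 3 Control, 3 IL-4 and 3 IL-6 libraries; points are libraries and short lines group means. Slc16a3 is at 32.1 to 37.2 FPKM with IL-6 and at 3.58 to 3.98 with IL-4, and the low IL-4 point of Slc2a3, Pfkfb3 and Pdk1 is IL-4 #3.

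At the lactate step, IL-4 went with more Ldha and Slc16a1, and IL-6 with more Slc16a3. Ldha, the subunit of lactate dehydrogenase that favors lactate formation (chr7:46841475-46855627), was at 106, 150 and 151 FPKM in Control, 279, 300 and 402 under IL-4 and 164, 186 and 192 under IL-6. The 3 groups did not overlap, IL-4 was highest and IL-4 #3 the highest of all. Ldha rose with IL-4 (1.27 ± 0.19, adjusted p = 0.00213), IL-6 gave 0.43 ± 0.19, adjusted p = 0.251 against Control, and IL-6 against IL-4 −0.84 ± 0.19, adjusted p = 0.0111. Ldhb, which favors the use of lactate, was at 12.5 to 14.3 FPKM in Control, 14.9 to 22.9 with IL-4 and 11.0 to 11.7 with IL-6, and IL-6 was below IL-4 (−0.66 ± 0.16, adjusted p = 0.0140, not past the threshold without IL-6 #1, adjusted p = 0.0521). Ldha held 89.5 to 91.8% of both in Control, 94.2 to 95.3% with IL-4 and 93.7 to 94.4% with IL-6.

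Slc16a3 (MCT4, the lactate exporter of highly glycolytic cells, chr11:120948480-120960868) was at 6.35, 7.39 and 7.36 FPKM in Control, 3.98, 3.95 and 3.58 under IL-4 and 32.1, 35.1 and 37.2 under IL-6. No group overlapped another, and the lowest IL-6 library was above every other library. The rise with IL-6 was 2.29 ± 0.12, adjusted p = 2.95e-05, the fall with IL-4 −0.86 ± 0.12, adjusted p = 0.00131, and the difference between the cytokines 3.15 ± 0.12, adjusted p = 1.40e-06, the largest of any member. All 3 kept an adjusted p under 0.05 in every refit, and the fall with IL-4 was below the 2-fold minimum. With a term for the library set the difference of IL-6 from Control was 2.37 (adjusted p = 0.00559).

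Slc16a1 (MCT1, which carries lactate and pyruvate either way) was at 3.31, 3.66 and 3.63 FPKM in Control, 9.97, 9.25 and 7.24 under IL-4 and 4.83, 5.69 and 5.50 under IL-6. IL-4 was highest, IL-6 between and Control lowest, without overlap. It rose with IL-4 (1.28 ± 0.15, adjusted p = 0.000566), was lower with IL-6 than with IL-4 (−0.70 ± 0.15, adjusted p = 0.00870), and gave 0.58 ± 0.15, adjusted p = 0.0547 for IL-6 against Control, which passed without IL-4 #3 (adjusted p = 0.00437). Slc16a3 made up 65.8 to 67.0% of the sum of both transporters in Control, 28.5 to 33.1% with IL-4 and 86.1 to 87.1% with IL-6, and the sum was 9.66 to 11.0, 10.8 to 13.95 and 36.9 to 42.7 FPKM.

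PDH kinases switch off pyruvate dehydrogenase and so keep pyruvate out of the mitochondrial cycle. All 3 tested kinases passed as higher with IL-6 than with IL-4, against 20.8% of all genes. Pdk1 was at 5.98, 4.90 and 6.01 FPKM in Control, 4.61, 4.00 and 2.27 under IL-4 and 7.46, 7.41 and 8.83 under IL-6. The groups did not overlap, and IL-4 #3 was the lowest. IL-6 was above IL-4 by 1.16 ± 0.25, adjusted p = 0.00904, and against Control IL-4 gave −0.67 ± 0.25, adjusted p = 0.0871 and IL-6 0.48 ± 0.25, adjusted p = 0.331. The difference of IL-6 from Control passed without IL-4 #3 (adjusted p = 0.0245). Pdk3 was at 6.21, 6.47 and 6.32 FPKM in Control, 5.79, 4.87 and 4.60 under IL-4 and 10.8, 10.6 and 12.5 under IL-6. IL-6 was highest and IL-4 lowest, without overlap. It rose with IL-6 (0.82 ± 0.13, adjusted p = 0.00740, not past the threshold with a term for the library set, adjusted p = 0.0605), and IL-6 was above IL-4 by 1.14 ± 0.13, adjusted p = 0.000360.

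Pdk2 fell with IL-4 (−0.73 ± 0.20, adjusted p = 0.0326) and was higher with IL-6 than with IL-4 (0.64 ± 0.20, adjusted p = 0.0402), but both calls were lost when single libraries were left out (adjusted p up to 0.0959 and 0.114 with 1 left out). The kinases summed to 16.1 to 16.8 FPKM in Control, 8.83 to 13.9 with IL-4 and 22.2 to 25.6 with IL-6, 3 ranges that did not overlap. Pdk3 held 36.9 to 40.3% of that sum in Control, 40.8 to 52.1% with IL-4 and 47.5 to 48.7% with IL-6.

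Of the 3 genes of the oxidative arm of the pentose phosphate pathway, 1 fell with IL-4, against 16.3% of all genes. G6pdx, the enzyme of its first and limiting step, was at 95.7 to 102 FPKM in Control, 44.3 to 81.3 with IL-4 and 85.6 to 92.6 with IL-6, so that all treated libraries lay below Control, and IL-4 gave −0.56 ± 0.22, adjusted p = 0.105 (adjusted p = 0.0237 without IL-4 #3). Pgd, the enzyme that releases carbon dioxide, fell with IL-4 (−0.33 ± 0.10, adjusted p = 0.0421), but with the mouse number as a replicate block the adjusted p was 0.0762, and after median-ratio rescaling the difference was −0.13 (adjusted p = 0.571). Pgls, the lactonase between them, was at 16.1, 17.9 and 50.1 FPKM in IL-4 #1 to #3, and IL-4 #3 was also above the Control libraries (16.8 to 26.5). Its exons share 18.9% of their 50-base stretches with Fam129c on the same strand.

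In the non-oxidative arm 2 of 4 genes, Tkt and Rpia, rose with IL-4 and were lower with IL-6 than with IL-4, against 8.55% and 13.3% of all genes. Tkt (transketolase) was at 50.2 to 63.0 FPKM in Control, 95.2 to 108 with IL-4 and 55.9 to 61.4 with IL-6, with all IL-4 libraries above all others (0.81 ± 0.12, adjusted p = 0.00180 for IL-4 and −0.77 ± 0.12, adjusted p = 0.00170 for IL-6 against IL-4). Transketolase moves carbon units between sugar phosphates, which links the arm to glycolysis. Rpia (ribose-5-phosphate isomerase) was at 2.90 to 3.75 FPKM in Control, 5.33 to 7.75 with IL-4 and 3.02 to 4.10 with IL-6. Its rise with IL-4 (0.90 ± 0.19, adjusted p = 0.0106) did not pass with a term for the library set, where only IL-4 #1 stands against Control (0.67). Rpe (ribulose-phosphate epimerase) gave 0.54 ± 0.20, adjusted p = 0.0850 with IL-4 and 0.62 ± 0.20, adjusted p = 0.109 with IL-6, and both passed without IL-4 #3 (adjusted p = 0.000285 and 0.00105). Taldo1 (transaldolase), the most abundant enzyme of the arm at 238 to 327 FPKM in Control, gave −0.26 ± 0.24, adjusted p = 0.471 with IL-4 and −0.42 ± 0.24, adjusted p = 0.388 with IL-6, and both passed as lower without IL-4 #3 (adjusted p = 0.0147 and 0.0393).

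Of 74 other genes around these pathways, 49 passed the filter on low values. With IL-4 7 rose and 13 fell, against 8.55% and 16.3% of all genes (11 and 10 after median-ratio rescaling, against 12.3% and 12.6%). With IL-6 3 passed, all higher, against 4.58% of all genes, and between the cytokines 15 were higher and 11 lower with IL-6, against 20.8% and 13.3%. Without IL-4 #3 these counts were 12 and 14 (15.3% and 22.5% of all genes), 8 and 9 (12.3% and 12.4%), and 17 and 14 (24.7% and 18.5%). The total for IL-4 was 11 without Control #1 and 10 without Control #3, that for IL-6 5 without IL-4 #1, and that between the cytokines 17, 15 and 17 without IL-6 #1, #2 and #3. For these totals the share of all genes is not given. The median log2 fold changes of the 49 genes over all libraries were −0.22, −0.01 and 0.04. Of the 9 tested among 25 other isozymes and transporters, 6 fell with IL-4, against 16.3% of all genes. The largest rises with IL-4 were those of Prps1 (ribose-phosphate pyrophosphokinase, 1.95 ± 0.20, adjusted p = 0.000315), Pck2 (mitochondrial phosphoenolpyruvate carboxykinase, 1.21 ± 0.38, adjusted p = 0.0488) and Galm (galactose mutarotase, 0.87 ± 0.10, adjusted p = 0.000472). The Pck2 call was lost when any of 8 of the 9 libraries was left out, IL-4 #3 among them (adjusted p up to 0.139). The largest falls were those of Pygl and Pygb, the liver and brain forms of glycogen phosphorylase (−1.72 ± 0.14, adjusted p = 8.04e-05; −1.42 ± 0.24, adjusted p = 0.00399), and of Slc16a6, another monocarboxylate transporter gene (−1.67 ± 0.42, adjusted p = 0.0221).

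The 3 genes that rose with IL-6 were Emb (embigin, a chaperone of monocarboxylate transporters, 1.15 ± 0.10, adjusted p = 0.000405), Gys1 (glycogen synthase, 1.05 ± 0.15, adjusted p = 0.00389) and Pgm1 (a phosphoglucomutase, 0.66 ± 0.12, adjusted p = 0.0146). With a term for the library set Emb passed (adjusted p = 0.0284), and Gys1 and Pgm1 did not (adjusted p = 0.156 and 0.252). Emb was at 33.5 to 38.1 FPKM in Control, 24.8 to 27.4 with IL-4 and 76.3 to 80.9 with IL-6, which is the order that Slc16a3 showed. Between the cytokines Slc16a6 (2.27), Pygl (2.04) and Gpd2 (mitochondrial glycerol-3-phosphate dehydrogenase, 1.72) were highest with IL-6, and Prps1 (−2.38), Pck2 (−1.96) and Pdp1 (a PDH phosphatase, −1.02) lowest, all with an adjusted p of at most 0.0158. Hif1a itself was at 24.3, 13.7 and 18.3 FPKM in Control, 21.9, 19.3 and 4.81 under IL-4 and 123, 99.3 and 112 under IL-6. The IL-6 libraries were all above the rest, and IL-4 #3 was lowest. It rose with IL-6 (2.60 ± 0.52, adjusted p = 0.0204) but did not pass with a term for the library set (3.76, adjusted p = 0.0941), and whether it had a part in the members' changes was not tested.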

How the data were processed

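RNA of 9 BMDM libraries (3 Control, 3 IL-4, 3 IL-6) was analyzed. The authors aligned reads with STAR (2.4.2a) to GRCm38 and deposited FPKM per gene, by their account calculated with Cufflinks (2.2.1) and GENCODE M5 annotation. Ensembl identifiers were matched to GENCODE M21 without their version, which gave 53274 of 53379 genes a symbol, and 0 sample columns were left unmapped. With the exon lengths of GENCODE M21, FPKM were whole multiples of 1 fragment in 100% of 141432 low values (tolerance 0.05), which gave the depth of each library. Cufflinks estimates on M5 need not be whole on M21 lengths, so the program and annotation behind the deposited FPKM are uncertain, and recovered fragments rest on M21 lengths. Coordinates are those of GRCm38.

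Groups were compared with limma (3.58.1, R 4.3.3) on log2(FPKM + 0.1) over 12824 genes with a mean of at least 0.5 FPKM, in 1 model of 9 libraries with trend and robust moderation, with Benjamini-Hochberg adjustment over all genes and a threshold of 0.05. The steps were tested on simulated data. Members and gene lists were chosen with earlier results of these data known. Library values are given for members that passed and differed at least by 1 on the log2 scale, and for Gapdh, Ldha and Pkm; of the other pathway genes, the 3 highest and 3 lowest that passed per comparison. Alternatives were other pseudocounts, filters and scalings, only the compared groups, voom on recovered fragments, terms for mouse or set of libraries, and leaving out each library. A second, near-silent Aldoa row was not used. Fold changes on this scale understate changes of low genes.

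The labels number libraries by mouse, and the series' text names 3 mice, so the numbers may pair libraries across the groups. Such a pairing was inferred from the numbers, and the model as reported leaves it out. Deviations from the group means correlated between same-numbered IL-4 and Control libraries with r = 0.52, −0.41 and 0.08, between IL-6 and Control with 0.41, 0.20 and 0.17, and between IL-6 and IL-4 with 0.28, −0.06 and 0.15. With the mouse as a replicate block 20, 8 and 20 members passed in the 3 comparisons. The share of all genes is not given for this refit, so these counts alone are no result about the members.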

Additional observations from a re-analysis of the deposited data

How the results depend on the processing

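Of 2573 recomputed differences of single genes, 2284 kept their direction and their side of the threshold, 147 no longer passed, 83 newly passed and 59, in 22 comparisons of a gene, changed sign. None of the 59 passed in either fit. For IL-4 against Control these were the log2 differences of Hk1 0.12 and Pfkfb4 0.15 after median-ratio rescaling, Hk1 0.074, Pfkfb4 0.055, Aldoa −0.071 and Aldoc 0.023 with quantile normalization, and Hk1 0.41, Pfkfb4 0.096, Aldoc 0.25 and Pgls −0.42 with either set of libraries as a term. For IL-6 against Control they were Aldoa −0.050, Pdk2 0.43, G6pdx 0.29, Rpia −0.23 and Tkt −0.071 with the set without Lyz1 as a term. For IL-6 against IL-4 they were Pfkfb4 −0.074, Aldoa −0.16, Gapdh −0.074, Pkm −0.17 and Rpe −0.12 after median-ratio rescaling, Gpi1 0.091, Pfkfb4 −0.020, Eno1 0.062, Rpe −0.10 and Taldo1 0.14 with quantile normalization, Hk1 −0.0036, Pfkfb4 −0.014, Eno1 0.041, Rpe −0.17 and Taldo1 0.15 with the 14-marker set as a term or within that set, and Aldoa −0.087 with the set without Lyz1, either way. With 1 library left out at a time, differences that changed sign ranged, with IL-4, for Hk1 −0.32 to 0.25, Hk2 −0.20 to 0.44, Pfkfb4 −0.15 to 0.13, Aldoc −0.49 to 0.16, Pgam1 −0.024 to 0.43 and Pgls −0.35 to 0.47, with IL-6 for Eno2 −0.35 to 0.0022 and Tkt −0.051 to 0.11, and between the cytokines for Pfkfb4 −0.048 to 0.23, Aldoa −0.087 to 0.22, Eno1 −0.25 to 0.015, Pkm −0.022 to 0.084, Rpe −0.16 to 0.21 and Taldo1 −0.31 to 0.12. The sets come from Paneth and goblet markers; leaving out Lyz1 was chosen after the data were seen. For IL-4 against Control, 20 members passed in the model as reported, 11 with only the groups compared, 7 with a 2-fold minimum and 13 to 27 with 1 library left out. The other pathway genes gave 20, and then 10, 8 and 10 to 26. Either set as a term leaves only IL-4 #1 against Control, so no counts are given with it. For IL-6 against Control the members gave 7, and 11 after median-ratio rescaling, 17 with quantile normalization, 18 with only the groups compared, 4 with the set without Lyz1, 4 with a 2-fold minimum and 6 to 20 with 1 library left out. The other pathway genes gave 3, and 8 with quantile normalization, 16 with only the groups compared, 5 with the 14-marker set and 2 to 17 with 1 library left out. For IL-6 against IL-4 the members gave 16, and 10 with a 2-fold minimum and 13 to 21 with 1 library left out. The other pathway genes gave 26, and 9 with the 14-marker set, 16 within the set without Lyz1, 13 with a 2-fold minimum and 15 to 31 with 1 library left out. With the mouse as a replicate block 20, 8 and 20 members passed; the calls it changed stand beside Tpi1, Aldoc, Eno2, Eno3 and Pgd, and it changed no other call of a member. The causes of these differences were not tested. The share of all genes that passed is not given for every refit, so these counts alone are no result about the genes counted. Pfkm, Pfkfb4, Tpi1 and Pgam1 had no recovered fragments and no voom value. Depth does not limit the abundant members, and of the tested members with recovered fragments Aldoc, Eno3, Bpgm and Eno2 rest on the fewest, 106 to 534 per library.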
